A study of Mus musculus with 37 samples.

Results

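Voltage-gated sodium and calcium channels were represented in the RNA-seq table by 40 of 48795 counted genes, chosen by symbol alone as all Scn genes of the alpha and beta type and all Cacna, Cacnb and Cacng genes, with the Cacna2d genes included. Of these, 20 encode pore-forming subunits (10 sodium alpha subunits and 10 calcium alpha1 subunits) and 20 encode auxiliary subunits (4 sodium beta, 4 calcium beta, 4 calcium alpha2delta and 8 calcium gamma). The symbol rule itself uses no measured value, but earlier results of these data were known when it was chosen. Enough reads for a test were found for 35 of them, 16 pore-forming and 19 auxiliary.

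The study asked what the histone H3K4 demethylase Kdm1a (also known as Lsd1) does in adult excitatory neurons. RNA came from whole hippocampi of male mice on the C57BL/6 J background, with 3 control mice and 3 Kdm1a-ifKO mice and 1 library per mouse. Kdm1a-ifKOs carried Kdm1a f/f alleles, whose floxed exons are removed by the tamoxifen-dependent recombinase of the Camk2a-creERT2 transgene, which is active in principal neurons of the forebrain. Controls were littermates without the recombinase, and both genotypes received tamoxifen at 8 weeks of age. The age at which the hippocampi were taken for RNA-seq is not given in the sources used here. A single CTCF ChIA-PET library, which records pairs of CTCF-bound loci that touch, came from sorted Camk2a+ hippocampal nuclei of males labelled WT for Kdm1a. These mice carried Camk2a-creERT2 with CAG-Sun1/sfGFP, a reporter that recombination switches on to tag the nuclear envelope, and were 12 weeks old, 1 month after tamoxifen. Since the RNA is from whole tissue, interneurons, glia and vessels, in which the gene was not deleted, contributed to every value, and fewer cells of a type cannot be told apart from less RNA per cell.

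A sodium or calcium channel of this superfamily opens its pore when the membrane depolarizes. Sodium alpha subunits carry the upstroke of the action potential, whereas calcium alpha1 subunits turn depolarization into calcium entry: Cav1 (L-type) channels feed calcium to signalling in soma and dendrites, Cav2 channels (P/Q-, N- and R-type) trigger transmitter release, and Cav3 (T-type) channels open at low voltage and favour burst firing. The auxiliary subunits set trafficking, voltage dependence and surface number of the pores, except that several Cacng genes encode transmembrane AMPA receptor regulatory proteins (TARPs) that serve glutamate receptors instead.

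The 6 RNA libraries held between 18985542 and 19469947 counts. Expression per library is given as CPM, the counts scaled by the normalized library size. Kdm1a itself stood at 79.5, 81.1 and 79.6 CPM in the controls and at 39.3, 36.9 and 38.4 CPM in the Kdm1a-ifKOs. The groups did not overlap, and the log2 fold change (log2FC, Kdm1a-ifKO against control throughout) was -1.07 with a standard error (SE) of 0.056 and an adjusted p of 6.24e-08 (edgeR quasi-likelihood test with Benjamini-Hochberg adjustment over 16799 tested genes, used for every adjusted p below unless another tool is named). These counts cover the whole gene, also the exons outside the deleted part. An exact permutation test of 3 mice against 3 cannot give a two-sided p under 0.100. Along the second component of a principal component analysis (17.4% of the variance), 1 library of each genotype (control replicate 3, at -11.4, and Kdm1a-ifKO replicate 2, at -15.4) lay away from the other 4 (4.18 to 8.33). The calls of members are therefore also given without these libraries. Other results are given without them only where stated.

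In control hippocampus, channel transcripts ranged from undetected to abundant, and the small beta subunits of sodium channels led. Levels are given here as TPM (counts divided by the summed exon length and scaled to 1 total in every library), the scale on which genes of different length can be compared, as mean ± SD of 3 control mice. Scn3b reached 274 ± 6.63 TPM and Scn2b 269 ± 5.25 TPM, with overlapping ranges. Next came Cacnb3, the neuronal calcium channel beta3 subunit, with 219 ± 14.1 TPM, and Cacng7, a TARP, with 205 ± 5.63 TPM, again with overlapping ranges. Cacng8, the TARP gamma8 that is typical of the hippocampus, stood at 156 ± 13.0 TPM and Cacnb1 at 141 ± 13.9 TPM. The 7 most abundant members were thus all auxiliary. Parts of the order depend on the length used: divided by the longest transcript, Cacnb3 (253 TPM) stood above Scn2b (212 TPM).

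Among pores, Scn8a, which encodes Nav1.6 of the axon initial segment and nodes, was highest with 119 ± 6.52 TPM. Cacna1h (Cav3.2) stood at 96.4 ± 10.8 TPM, Cacna1e (Cav2.3) at 78.1 ± 10.0 TPM and Scn2a (Nav1.2) at 77.5 ± 15.8 TPM, with overlap between neighbours in this order. Cacna1b (Cav2.2, 67.4 ± 2.89 TPM) and Cacna1a (Cav2.1, 67.1 ± 2.48 TPM) could not be ordered. Divided by the longest transcript, Cacna1e (104 TPM) stood above Cacna1h (89.8 TPM), and Cacna1a (75.9 TPM) above Cacna1b (54.1 TPM). The L-type genes were lower, with Cacna1c (Cav1.2) at 34.8 ± 1.83 TPM and Cacna1d (Cav1.3) at 23.6 ± 0.477 TPM. In all, 29 members reached 5 TPM. The other 11 included the channels known from muscle, retina and peripheral sensory neurons, such as Scn9a (Nav1.7) at 1.08 ± 0.252 TPM and Cacna1f (Cav1.4) at 0.378 ± 0.221 TPM.

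**Figure D1:**
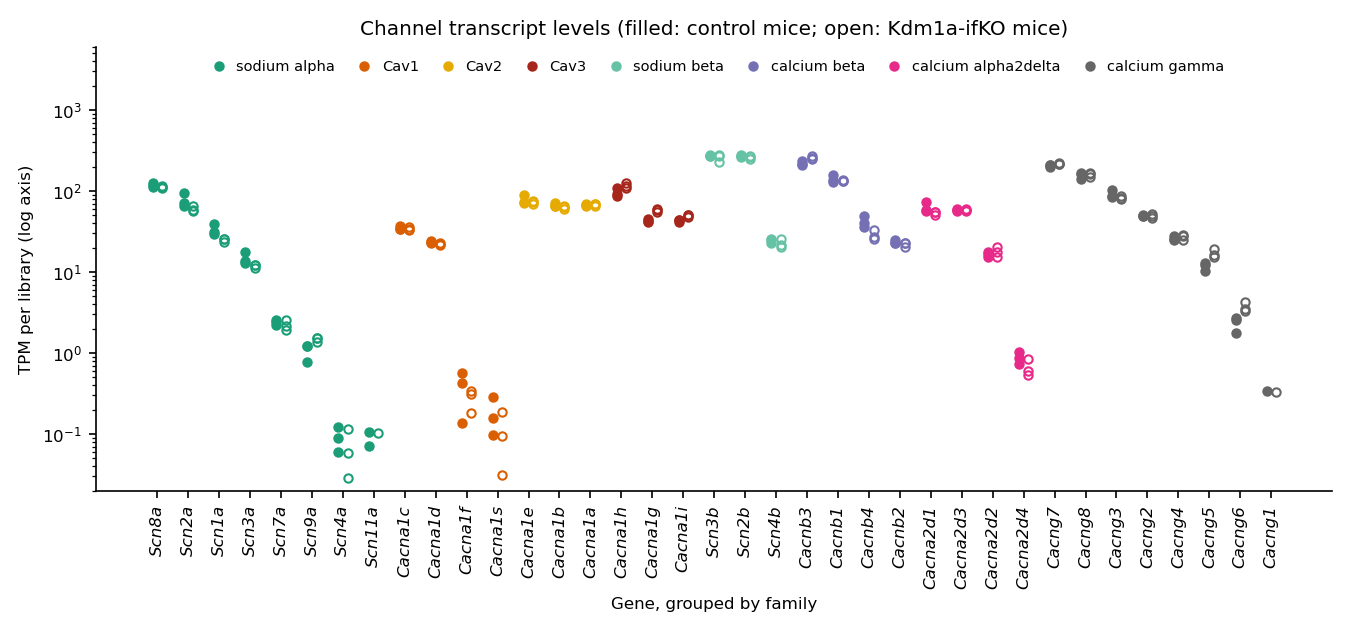
Level of 37 channel genes in TPM on a log axis, with 1 point per library (filled, 3 control mice; open, 3 Kdm1a-ifKO mice), grouped by subunit family and ordered within a family by the control mean. Libraries at 0 and Scn10a, with 0 counts in all 6 libraries, are not drawn. Scn3b, Scn2b, Cacnb3 and Cacng7 lie highest, and the members below 5 TPM form a separate lower band in the sodium alpha, Cav1, alpha2delta and gamma families.

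The 5 members without a test had few reads in either genotype. Cacna1s, the skeletal muscle L-type pore, summed to 17 counts in the 3 controls and 10 in the 3 Kdm1a-ifKOs, Scn4a, the skeletal muscle sodium channel, to 9 and 7, Scn11a (Nav1.9) to 5 and 3, and Cacng1, the skeletal muscle gamma subunit, to 2 and 2. Scn10a (Nav1.8) had 0 counts in all 6 libraries, which does not exclude a very low level. No difference between genotypes was detectable for these genes at this depth.

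With Kdm1a deleted, 6 of the 35 tested members (17.1%) changed at an adjusted p under 0.05. Among all tested genes 1487 (8.85%) did, so the members' share was above this background, without a test of that difference. Without Kdm1a-ifKO replicate 3 it was below, with 1 member called (2.86%) against 4.58% of all tested genes. Leaving out any other single library kept it above. Higher in Kdm1a-ifKOs were 5 members (among them Cacna1g, Cacna1i, Cacnb3 and Cacng5, against 6.04% of all tested genes), and lower was 1 (Scn1a, against 2.82%). Of the 35, 14 had a positive and 21 a negative log2FC, with a median of -0.05 against -0.00 over all tested genes, and 13 had an unadjusted p under 0.05. The CPM values of the genotypes did not overlap for 16 members (45.7%, 8 above and 8 below), against 30.0% of all tested genes. The split of calls changed when GC content and length were corrected together (the GC correction): among all tested genes 68.2% of the calls were higher in Kdm1a-ifKOs without it and 52.4% with it, in which 4 members were called higher (5.38% of all tested genes were) and 6 lower (4.88% of all).

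**Figure D2:**
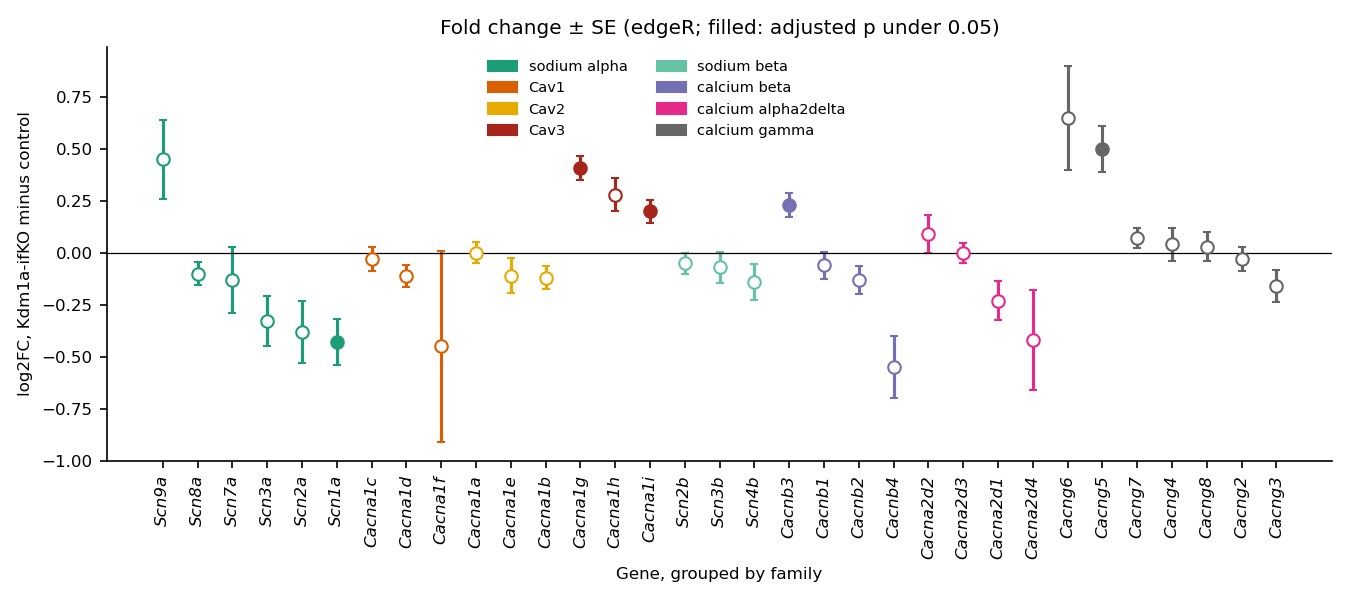
log2FC of 33 tested channel genes, Kdm1a-ifKO against control, with 1 SE (3 mice per genotype), grouped by family; filled points passed an adjusted p of 0.05 in edgeR. The 3 Cav3 genes all lie above 0, Scn1a, Scn2a and Scn3a lie below 0, and the sodium beta and Cav2 genes lie within 0.14 of 0.

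Among T-type calcium channel pores, all 3 genes had a positive log2FC and 2 were called, with a family median of 0.28. With the GC correction the median was 0.16 and 1 of the 3 was called. Cacna1g, which encodes Cav3.1, was measured at 108, 117 and 105 CPM in the controls and 153, 146 and 139 CPM in the Kdm1a-ifKOs. The 2 sets of mice were fully apart, with the Kdm1a-ifKOs higher and a log2FC of 0.41 (SE 0.058, adjusted p = 5.65e-04). Cacna1i (Cav3.3) was measured at 110, 109 and 102 CPM against 127, 117 and 125 CPM. Its groups were also apart, and the log2FC was 0.20 (SE 0.055, adjusted p = 0.0360). Cacna1h was measured at 266, 227 and 217 CPM against 308, 265 and 287 CPM. Control replicate 1 reached into the Kdm1a-ifKO range, and the log2FC of 0.28 (SE 0.081) did not pass (adjusted p = 0.0618; DESeq2, 0.0117; GC correction, log2FC 0.16 and adjusted p = 0.232). Expressed per length, the 3 genes summed to a share of 40.2% ± 2.77 of all calcium pore TPM in controls (37.0 to 42.2%) and 46.4% ± 1.02 in Kdm1a-ifKOs (45.2 to 47.0%), so the shares did not overlap. TPM, and every sum and share of it given here, is without the GC correction.

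Cacna1g kept its call without any single library and in all 9 other settings tried, with log2FCs from 0.32 to 0.45. Cacna1i lost it without control replicate 2 (adjusted p = 0.0876), control replicate 3 (0.0613), Kdm1a-ifKO replicate 1 (0.139) or Kdm1a-ifKO replicate 3 (0.157), and with the GC correction (log2FC 0.09, adjusted p = 0.320).

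The other calcium pores did not pass the test. None of the 3 tested Cav1 genes and none of the 3 Cav2 genes was called, and their family medians were both -0.11 (log2FC). Cacna1d had a log2FC of -0.11 (SE 0.053, adjusted p = 0.245), with 73.2 to 75.8 CPM in the controls and 67.5 to 71.3 CPM in the Kdm1a-ifKOs. Its groups did not overlap, as for Cacna1b, which had a log2FC of -0.12 (SE 0.055, adjusted p = 0.212) with 164 to 178 CPM against 148 to 162 CPM. Cacna1a, the P/Q-type pore, had the same mean of 193 CPM in both genotypes, with a log2FC of 0.00 (SE 0.050). Cacna1c (-0.03, SE 0.057) and Cacna1e (-0.11, SE 0.085) overlapped between genotypes. The retinal Cacna1f, with 6 to 25 counts per library, could not be resolved (log2FC -0.45, SE 0.46).

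Among the sodium pores, Scn1a was called lower. It encodes Nav1.1, the main sodium channel of fast-spiking interneurons and also present in pyramidal neurons, and was measured at 81.9, 88.7 and 112 CPM in the controls and 72.5, 70.4 and 66.3 CPM in the Kdm1a-ifKOs. All Kdm1a-ifKO libraries were below all controls, with a log2FC of -0.43 (SE 0.11, adjusted p = 0.0422). Control replicate 3 was the highest of the libraries, and without it the log2FC was -0.29. The call was lost without Kdm1a-ifKO replicate 1 (adjusted p = 0.0944), 2 (0.0826) or 3 (0.126).

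Scn2a was measured at 211, 227 and 308 CPM against 189, 205 and 179 CPM, and Scn3a (Nav1.3, best known from the immature brain) at 42.6, 40.7 and 55.9 CPM against 38.4, 38.0 and 34.7 CPM. In both, control replicate 3 was far above the other controls, and the Kdm1a-ifKO libraries were below all of them. Neither passed the test (log2FC -0.38, adjusted p = 0.195, and log2FC -0.33, adjusted p = 0.121), and without control replicate 3 the log2FCs were -0.19 and -0.17, again not called. Scn2a was called without both control replicate 3 and Kdm1a-ifKO replicate 2 (log2FC -0.25, adjusted p = 0.00534). Scn3a was called by DESeq2 (adjusted p = 0.0436), without a filter on low counts (2.16e-04) and without control replicate 2 (0.0380). Scn9a was measured at 2.51, 3.89 and 3.98 CPM against 4.37, 4.82 and 4.98 CPM, without overlap (log2FC 0.45, SE 0.19, adjusted p = 0.154). Scn8a had a log2FC of -0.10 (SE 0.054, adjusted p = 0.274) and the glial and sensory Scn7a one of -0.13 (SE 0.16, adjusted p = 0.670), both with overlapping groups.

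Summed over the 10 sodium alpha genes, the level was 250 ± 29.6 TPM in controls (232, 233 and 284) and 214 ± 8.75 TPM in Kdm1a-ifKOs (217, 221 and 204). The groups did not overlap, and the highest sum was that of control replicate 3. Calcium pores summed to 454 ± 12.2 TPM and 484 ± 18.1 TPM, again without overlap (440 to 464 against 472 to 505 TPM). Neither sum carries the GC correction.

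**Figure D3:**
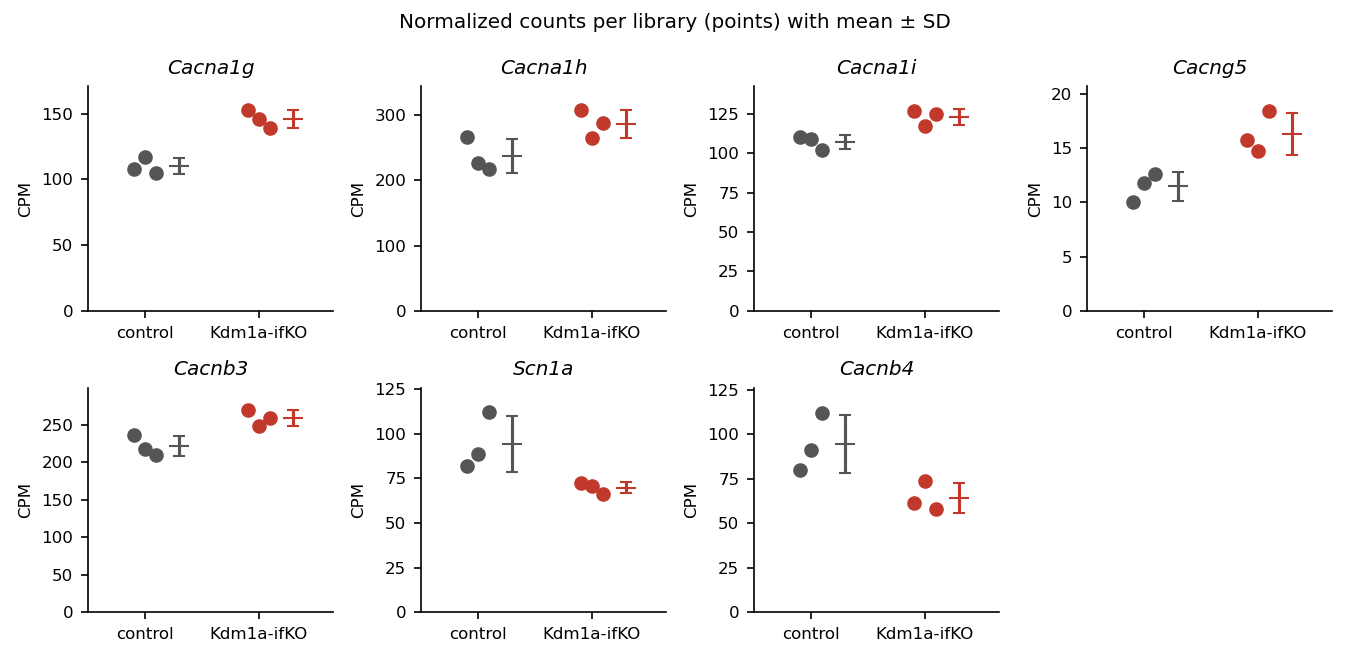
CPM of 5 called channel genes and of Cacna1h and Cacnb4, the third T-type pore and the member with the most negative log2FC. Each point is 1 library, with replicates 1 to 3 from left to right, and the bars give mean ± SD of 3 mice on axes that start at 0. The genotypes are apart in every panel except that of Cacna1h.

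The calcium beta subunits, which chaperone Cav1 and Cav2 pores to the membrane and do not serve Cav3 pores, split. Cacnb3 was measured at 236, 218 and 210 CPM in the controls and 269, 248 and 259 CPM in the Kdm1a-ifKOs. No Kdm1a-ifKO library was as low as a control, and the log2FC was 0.23 (SE 0.057, adjusted p = 0.0254). With the GC correction it was 0.04 (adjusted p = 0.708), and the call was also lost without control replicate 2 (adjusted p = 0.105), Kdm1a-ifKO replicate 1 (0.113) or Kdm1a-ifKO replicate 3 (0.107). Cacnb4, the gene mutated in the ataxic lethargic mouse, was measured at 80.1, 91.2 and 112 CPM in the controls and 61.5, 74.0 and 57.8 CPM in the Kdm1a-ifKOs. It showed the most negative log2FC of the members, -0.55 (SE 0.15), without overlap between genotypes and with an adjusted p of 0.0744. Cacnb4 was called by DESeq2 (adjusted p = 2.95e-05), with the GC correction (log2FC -0.40, adjusted p = 0.0119) and without control replicate 3 and Kdm1a-ifKO replicate 2 (log2FC -0.52, adjusted p = 6.49e-05). Per length and without the GC correction, Cacnb3 made up 51.5% ± 1.02 of calcium beta TPM in controls and 58.1% ± 0.857 in Kdm1a-ifKOs, and Cacnb4 9.91% ± 2.08 and 6.49% ± 0.978. Cacnb1 (log2FC -0.06, SE 0.064) and Cacnb2 (-0.13, SE 0.066) did not pass.

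Of the gamma subunits, Cacng5, an atypical TARP, was measured at 10.0, 11.8 and 12.6 CPM in the controls and 15.7, 14.7 and 18.4 CPM in the Kdm1a-ifKOs. The groups were apart, with a log2FC of 0.50 (SE 0.11, adjusted p = 0.0146), and the call was lost without Kdm1a-ifKO replicate 3 (log2FC 0.40, adjusted p = 0.0694) and, at the very threshold, without control replicate 1 (log2FC 0.41). The abundant TARPs differed little: Cacng8 had a log2FC of 0.03 (SE 0.071), Cacng7 of 0.07 (SE 0.049), Cacng2 (stargazin) of -0.03 (SE 0.056) and Cacng3 of -0.16 (SE 0.077). With the GC correction Cacng8 turned to -0.20 (adjusted p = 0.0354) and Cacng3 moved to -0.26 (adjusted p = 0.0197). Cacng6, with 17 to 25 counts in the controls and 32 to 41 in the Kdm1a-ifKOs, did not overlap between genotypes and did not pass (log2FC 0.65, SE 0.25, adjusted p = 0.126). Cacng4 had a log2FC of 0.04 (SE 0.080). All 8 gamma genes together summed to 543 ± 26.7 TPM in controls and 556 ± 1.97 TPM in Kdm1a-ifKOs.

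None of the 4 sodium beta and none of the 4 alpha2delta genes passed. The log2FC was -0.05 for Scn2b (SE 0.051), -0.07 for Scn3b (SE 0.074) and -0.14 for Scn4b (SE 0.085), and all 4 sodium beta genes overlapped between genotypes. With the GC correction the sodium beta median was -0.13 and 1 of the 4 was called lower, against 4.88% of all tested genes. Cacna2d1, the gabapentin receptor, was measured at 177, 183 and 229 CPM against 172, 172 and 160 CPM. Its groups were apart because even the lowest control was above the highest Kdm1a-ifKO library, and the log2FC was -0.23 (SE 0.092, adjusted p = 0.170). It was -0.10 without control replicate 3 and -0.05 with the GC correction, and Cacna2d1 was called without a filter on low counts (adjusted p = 0.00424). Cacna2d2 (0.09, SE 0.090), Cacna2d3 (-0.00, SE 0.049) and the scarce Cacna2d4 (-0.42, SE 0.24) overlapped.

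Pore-forming subunits were called in 4 of 16 cases (25.0%, 3 higher and 1 lower) and auxiliary subunits in 2 of 19 (10.5%, both higher), against 8.85% of all tested genes (6.04% higher and 2.82% lower). The auxiliary class includes 7 tested calcium gamma genes, with 1 called, and several of these encode TARPs that serve glutamate receptors. The median log2FC was -0.10 for pores and -0.03 for auxiliary subunits, a difference of -0.07. This difference was 0.05 with the GC correction and 0.01 without control replicate 3. After the GC correction the counts were 4 of 16 and 6 of 19 (25.0% and 31.6%), against 10.3% of all tested genes. The order of the classes in count and in median thus changed with the correction.

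Fold change followed base composition, in the members as in the genome. Spearman's rho between log2FC and the GC content of the longest transcript was 0.406 over 16752 tested genes and 0.545 over the 35 members, across genes that share the same 6 libraries and are not independent. Tested genes with 40 to 45% GC had a median log2FC of -0.10 and the 7 members among them one of -0.33. Those with 55 to 60% GC had a median of 0.09 and the 8 members one of 0.15. Scn1a (43.3% GC), Scn2a (43.4%), Scn3a (42.1%) and Cacnb4 (40.5%) lie in the former class, and Cacna1g (58.1%) and Cacna1i (59.3%) in the latter. With the trend on GC content and length removed, Spearman's rho was -0.0203 over all genes and 0.0202 over the members. The log2FCs then were 0.32 for Cacna1g, 0.44 for Cacng5 and -0.31 for Scn1a, all still called, and Scn9a (0.60), Cacnb1 (-0.23) and Cacnb4 (-0.40) were among those called besides, as were Cacng3 and Cacng8.

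**Figure D4:**
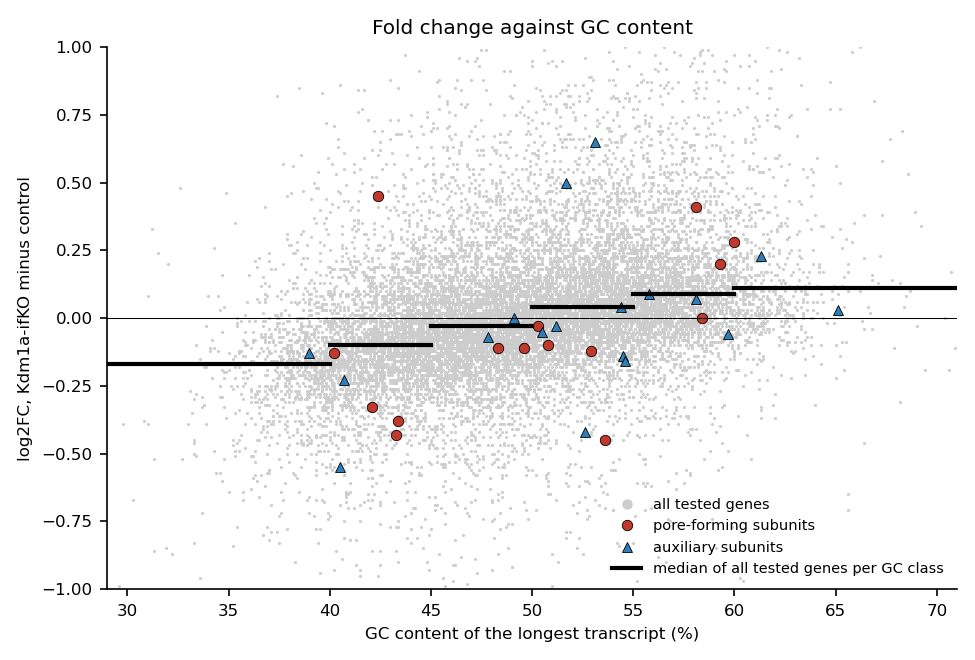
log2FC, Kdm1a-ifKO against control, over the GC content of the longest transcript in percent. Grey points are tested genes inside the axes, black bars their medians per GC class (-0.17 below 40% and 0.11 from 60%), red circles 15 pore-forming and blue triangles 18 auxiliary subunits; the members follow the slope of the bars, with Scn9a (42.4% GC, log2FC 0.45) well above it.

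Without control replicate 3 and Kdm1a-ifKO replicate 2, 9 members were called, against 9.49% of all genes tested in that fit. Of these, 6 were higher (6.17% of all genes) and 3 lower (3.32%). The members added were Cacna1h, Scn2a and Cacnb4, and none of the 6 was lost.

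Some markers of cell types were called too, against 6.04% of all tested genes called higher and 2.82% called lower. The 8 microglia markers summed to 342 to 370 CPM in control mice and 390 to 499 CPM in Kdm1a-ifKOs, with 3 called higher (Cx3cr1, log2FC 0.27; Tmem119, 0.42; Csf1r, 0.33). The 8 astrocyte markers summed to 5475 to 6089 and 6118 to 6439 CPM, with 3 called higher (Slc1a3, 0.22; Aldoc, 0.20; S100b, 0.26). Excitatory neuron markers summed to 7196 to 7629 and 7043 to 7790 CPM, with 2 of 8 called lower, among them Neurod6 (-0.36). Of 4 CA1 markers, 1 was called lower. Interneuron markers summed to 915 to 984 and 888 to 916 CPM, with Vip (-0.46) and Npy (-0.31) called lower of 10. The sums of the interneuron and of the excitatory neuron markers overlapped between genotypes. Single genes were called on the lists for CA2 (Map3k15, which rose from 2.94 ± 0.361 to 9.58 ± 0.360 CPM), dentate gyrus (C1ql2, 0.55), mural and meningeal cells (Pdgfrb, 0.39), choroid plexus (Kl, 1.28) and striatum (Ppp1r1b, 0.39), and for thalamus Prkcd was higher (0.57) and Slc17a6 lower (-1.09). No gene was called on the lists for CA3, oligodendrocytes and their precursors, endothelium or ependyma, and no marker was at 0 in all libraries. The part of cell composition in the channel results was not tested.

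Proteins that work with these channels were followed on 6 lists with 58 tested genes, of which 15 were called, against 8.85% of all tested genes. The values of single marker and partner genes are from the fit with all libraries and without the GC correction. How many partners were called changed when 1 library was left out. The median log2FC was -0.13 for sodium channel partners, 0.00 for calcium channel partners, -0.23 for the sodium leak channel complex, -0.27 for AMPA receptors, 0.04 for calcium release and -0.14 for calcium removal, against -0.00 over all tested genes. Of 12 partners of sodium channels, Fgf11 was higher (46.5, 52.7 and 47.5 CPM in control mice against 79.6, 66.8 and 69.2 CPM; log2FC 0.55, adjusted p = 4.75e-04). Its relatives Fgf12 (-0.38, adjusted p = 0.0205) and Fgf14 (-0.43, adjusted p = 0.0158), which like Fgf11 encode intracellular factors that bind the sodium channel tail, were lower, as was the axonal adhesion gene Cntn1 (-0.26, adjusted p = 0.0235). Fgf13, the remaining gene of that family, was not called (-0.11, adjusted p = 0.214). The 2 genes of this list with the highest CPM, Ank2 (-0.21, adjusted p = 0.249) and Nedd4 (0.08, adjusted p = 0.367), did not pass either.

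Of 15 tested partners of calcium channels, Stac2, whose product slows inactivation of L-type channels, stood at 91.9, 87.6 and 90.2 CPM in control mice and 153, 152 and 168 CPM in Kdm1a-ifKOs (log2FC 0.81, adjusted p = 9.10e-07). Rrad, a small GTPase that inhibits Cav1 and Cav2 channels through their beta subunits, was at 0.537 to 0.735 CPM in control mice and 3.70 to 3.96 CPM in Kdm1a-ifKOs (log2FC 2.58, adjusted p = 5.87e-06). In both genes the genotypes were far apart, and Rrad remained a rare transcript. Cabp1, a neuronal calcium sensor, was higher (0.31, adjusted p = 0.0155), and Rims1 of the presynaptic active zone (-0.32, adjusted p = 0.00465) and the calmodulin gene Calm2 (-0.21, adjusted p = 0.0205) were lower. Calm3, another calmodulin gene of high CPM, did not pass (-0.07, adjusted p = 0.477).

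Calcium release from stores and calcium removal each held genes with large changes. Ryr1, the skeletal muscle ryanodine receptor, stood at 54.2, 53.7 and 53.9 CPM in control mice and 101, 91.6 and 97.5 CPM in Kdm1a-ifKOs (log2FC 0.84, adjusted p = 6.36e-07), and the store-operated pore Orai1 was also higher (0.47, adjusted p = 0.0365). They were 2 of 11 release genes, of which Itpr1 (-0.43, adjusted p = 0.182) and Ryr2 (-0.09, adjusted p = 0.609) had the highest CPM. Of 12 tested removal genes, Atp2a3, the SERCA3 pump, rose from 11.7, 10.0 and 12.4 CPM to 49.1, 49.0 and 45.8 CPM (log2FC 2.07, adjusted p = 5.15e-09). Slc24a2, a potassium-dependent sodium/calcium exchanger, fell from 578, 599 and 836 CPM to 403, 393 and 377 CPM (log2FC -0.78, adjusted p = 0.0318), with control replicate 3 again highest. The pumps with the highest CPM, Atp2a2 (-0.13, adjusted p = 0.104) and Atp2b1 (-0.35, adjusted p = 0.0589), did not pass.

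In the sodium leak channel complex Fam155a was lower (-0.21, adjusted p = 0.0315), 1 of 4 tested genes, whereas Nalcn (-0.26, adjusted p = 0.122) and Unc80 (-0.29, adjusted p = 0.328) did not pass. Of the 4 AMPA receptor subunits that TARPs accompany, Gria3 was lower (-0.29, adjusted p = 0.00514), and Gria1 (-0.00, adjusted p = 0.986) and Gria2 (-0.27, adjusted p = 0.166) were not called.

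Many members lie beside each other in the genome (GRCm38, GENCODE M21). Scn3a, Scn2a, Scn1a, Scn9a and Scn7a form a row on chromosome 2 between 65457118 and 66784914. In it Scn1a was called lower, and its neighbour Scn9a had a positive log2FC. Cacng1, Cacng4 and Cacng5 lie on chromosome 11, with Cacng5 called higher, Cacng4 at 26.1 ± 1.62 TPM in controls and not called, and Cacng1 nearly without reads. Cacna1g, Cacna1i, Cacnb3 and Cacng5 overlap no other annotated gene. Scn1a overlaps Gm13630 on the opposite strand, and since the strand setting of the counting is not given, reads of that pair cannot be told apart.

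CTCF contacts were described from 27786 loops with at least 3 paired-end tags (PETs), from excitatory nuclei of mice with intact Kdm1a. An anchor lay within 10 kb of 28 of the 40 members (70.0%), in 14 of 20 pores and 14 of 20 auxiliary subunits, against 56.9% of all tested genes. The members counted here include those without a test, whereas the comparison sets hold tested genes only. Of the untested members, Cacna1s, Scn4a, Scn10a and Scn11a had such an anchor. Channel genes are long (median 105 kb against 21.3 kb), and among genes of at least 100 kb the shares were 70.0% (14 of 20 members) and 67.4%. With loops of at least 10 PETs the shares were 60.0% and 43.7%. The difference between channel genes and other long genes was not tested.

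Loop number differed widely between members. Cacna1a had 27 loops, Cacna1s 22 and Cacna1i 20, of which 11 had an anchor within 5 kb of the Cacna1i start. In the chromosome 2 row, Scn2a, Scn1a, Scn9a and Scn7a had no anchor within 10 kb, and each lay inside 7 larger loops, while Scn3a had 2 loops at its start. The strongest loop (247 PETs) ran over 120 kb from an anchor beside the 3′ end of Cacng5 (chr11:107858550-107869030) to one at Prkca (chr11:107977725-107989367), with Cacng5 between them. Of all loops, 37 had at least as many PETs. The next strongest at a member (233 PETs) began inside Cacna1e (chr1:154781858-154793878), spanned 220 kb and ended where no protein-coding gene lay within 10 kb. Among the called genes, Cacnb3 had 9 loops (up to 27 PETs), Cacna1g 6 (up to 29), Cacna1i 20 (up to 13), Cacng5 5 and Scn1a 0. With a single wild type library, no change with genotype could be measured.

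**Figure D5:**
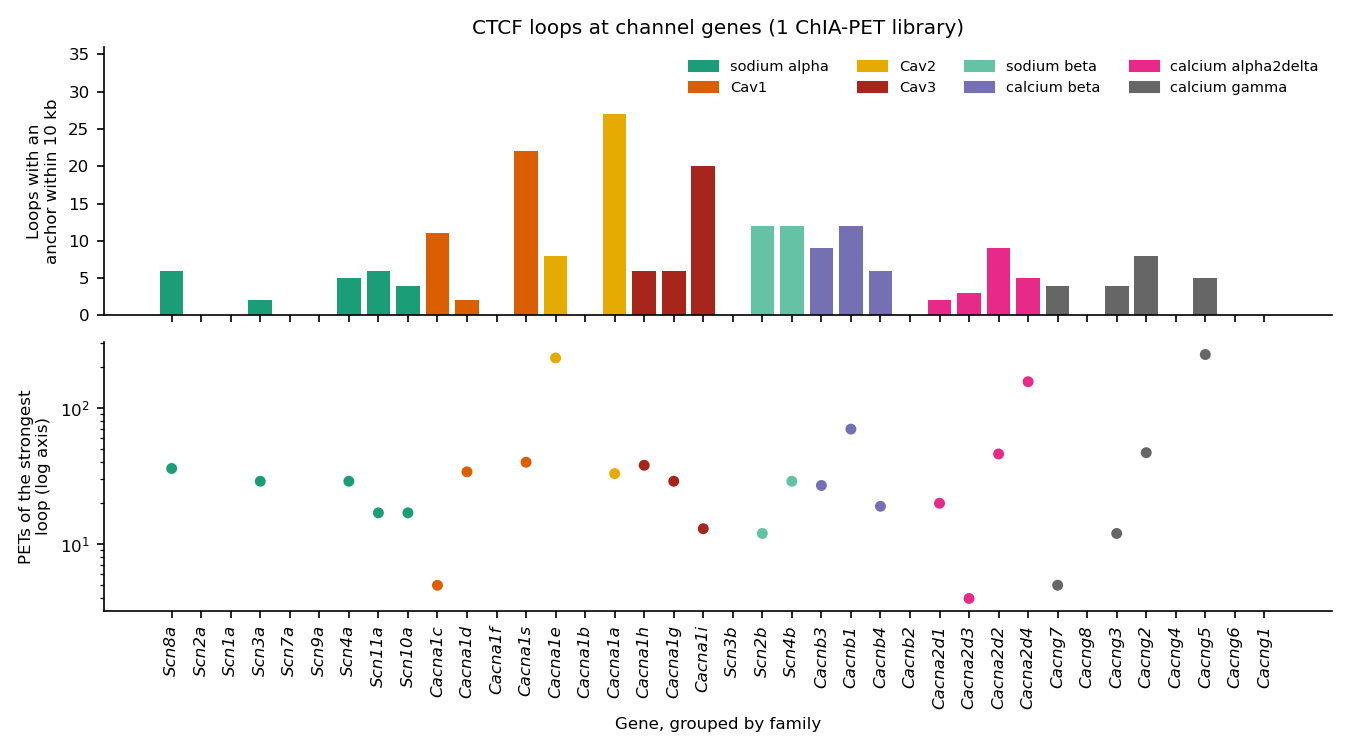
Upper panel, number of CTCF loops with an anchor within 10 kb of each of 38 channel genes; lower panel, PET count of the strongest such loop on a log axis, absent where there is none. Genes are grouped by family; Cacna1a (27), Cacna1s (22) and Cacna1i (20) have the most loops, and Cacng5 (247 PETs) and Cacna1e (233 PETs) the strongest.

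Matches to the core of the CTCF motif are shown for loops at the called genes Cacng5 and Cacnb3 and for the loop of 233 PETs at Cacna1e, which was not called. The core searched, on both strands, was CCA, 2 bases of any kind, AG, 2 bases of any kind and GGC. It was found in 21909 of 55480 distinct anchors (39.5%, median length 1.35 kb) and in 150 of 416 anchors of loops at members (36.1%). The loops of 247 PETs at Cacng5 and of 233 PETs at Cacna1e had a core in the left anchor only. A further loop at Cacng5 (47 PETs, 130 kb), with the same left core, had 1 core in each anchor. They lay on the plus strand at left and on the minus strand at right, the convergent arrangement typical of CTCF loops. Among loops with cores on 1 strand in each anchor, 2044 of 3795 (53.9%) were convergent, and 14 of 22 (63.6%) at members. In the loop of 27 PETs and 14.3 kb at Cacnb3, both anchors held 1 core on the minus strand. Each is printed 5′ to 3′ on its own strand from GRCm38, with the core in capitals:
Cacng5 left anchor, chr11:107864207-107864256, plus strand: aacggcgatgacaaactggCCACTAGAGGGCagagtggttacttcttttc
Cacng5 right anchor, chr11:107994682-107994731, minus strand: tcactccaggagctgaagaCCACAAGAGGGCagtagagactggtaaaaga
Cacna1e left anchor, chr1:154788235-154788284, plus strand: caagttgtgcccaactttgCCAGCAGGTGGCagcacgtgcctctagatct
Cacnb3 left anchor, chr15:98617333-98617382, minus strand: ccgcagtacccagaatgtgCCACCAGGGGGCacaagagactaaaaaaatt
Cacnb3 right anchor, chr15:98631571-98631620, minus strand: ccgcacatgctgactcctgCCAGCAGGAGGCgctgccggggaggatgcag
The right core of Cacnb3 lies inside the annotated gene and upstream of its printed promoters. A match of these letters is not evidence that CTCF is bound at that base.

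RefSeq promoters (GRCm38.p6, 250 bases before to 50 after a start) were at hand for 30 of the 40 members, in 41 windows. Their median GC content was 59.3%, against 52.7% over 32851 promoters. The GC box GGGCGG, on either strand, was in 16 of the 41 (39.0%) and in 35.7% of all. The CTCF core was in 2 of 41 (4.88%, at Scn2a and Cacnb1) and in 2.43% of all, and TTCAGCACC, the left part of the RE1 element of the neuronal repressor REST, was in 0 of 41 and in 0.371% of all. The promoters of 3 called genes follow, those of Cacnb3 and Cacna1i because they lie in or reach into CTCF anchors and that of Scn1a as the called gene without any anchor nearby, with GC boxes in capitals:
Cacnb3, first start, chr15:98632078-98632377, plus strand: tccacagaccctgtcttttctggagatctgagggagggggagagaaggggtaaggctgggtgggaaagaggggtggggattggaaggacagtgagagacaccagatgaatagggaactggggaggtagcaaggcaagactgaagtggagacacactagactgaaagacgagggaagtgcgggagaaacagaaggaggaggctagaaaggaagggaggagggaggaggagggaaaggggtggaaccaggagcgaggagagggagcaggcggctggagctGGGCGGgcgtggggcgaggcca
Cacnb3, second start, chr15:98634517-98634816, plus strand: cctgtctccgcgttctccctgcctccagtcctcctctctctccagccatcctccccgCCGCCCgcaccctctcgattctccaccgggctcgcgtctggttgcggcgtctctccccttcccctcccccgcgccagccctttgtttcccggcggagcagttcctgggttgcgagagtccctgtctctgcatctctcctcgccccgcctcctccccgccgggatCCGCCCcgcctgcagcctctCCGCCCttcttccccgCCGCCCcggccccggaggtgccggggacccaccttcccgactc
Cacna1i, chr15:80286988-80287287, plus strand: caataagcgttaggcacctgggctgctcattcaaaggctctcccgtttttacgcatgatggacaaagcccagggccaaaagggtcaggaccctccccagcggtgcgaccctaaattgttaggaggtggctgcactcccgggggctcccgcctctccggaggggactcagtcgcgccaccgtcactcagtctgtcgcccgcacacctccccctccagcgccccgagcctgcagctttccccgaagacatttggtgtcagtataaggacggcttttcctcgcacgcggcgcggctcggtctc
Scn1a, chr2:66440788-66441087, minus strand: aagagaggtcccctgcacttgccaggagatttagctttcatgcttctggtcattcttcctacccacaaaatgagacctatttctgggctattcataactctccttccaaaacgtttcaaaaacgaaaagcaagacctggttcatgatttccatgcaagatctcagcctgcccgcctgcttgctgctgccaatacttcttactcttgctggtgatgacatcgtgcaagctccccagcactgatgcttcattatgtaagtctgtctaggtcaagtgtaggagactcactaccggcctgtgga
The second Cacnb3 window holds 4 GC boxes on the minus strand at 72.0% GC, the first 1 box at 59.7% GC. The Cacna1i window has 62.7% GC and no GC box, and the Scn1a window 47.3% GC and no GC box. These 3 genes were picked for their calls and anchors and not at random.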

How the data were processed

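Raw read counts per gene were deposited by the authors for 6 hippocampal poly-A libraries. They trimmed single-end reads with cutadapt 1.18, aligned them to mm10 with HISAT2 2.1.0, kept mapping qualities over 30 and counted with HTSeq 0.11.1; the strand setting is not given in the sources used here. The deposited CTCF loops, from ChIA-PIPE, carry PET counts of at least 3 with a peak at both anchors. The members and gene lists were chosen with earlier results of these data known.

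Counts were tested with edgeR 4.0.16 (R 4.3.3; filterByExpr, TMM, robust quasi-likelihood fit, genotype as the only factor), and p-values were adjusted after Benjamini-Hochberg over 16799 genes with a threshold of 0.05. The SE is the absolute log2FC divided by the square root of F. CPM used TMM library sizes, and TPM the summed exon length of GENCODE M21, which held 48435 of the 48795 genes (99.3%). Alternatives were DESeq2 1.42.0, other size factors and filters on low counts, a replicate block, a correction for GC content and length (smooth trend per library, mgcv 1.9.3) and leaving out each library. The fits were also run on simulated counts. These held no trend on GC content or length, so they cannot show how the fits behave under such a trend. Named were all members, Kdm1a, partner and marker genes that passed the threshold and the 2 partners per list with the highest CPM; Fgf13 and the alternative without both control replicate 3 and Kdm1a-ifKO replicate 2 were added after the data were seen. P-values measure the spread between 3 mice per genotype, and libraries of 18985542 to 19469947 counts limit the precision of members below 1 CPM. Counts and medians are over all members, but values of a few single genes are not reported here. Sequences were read with pysam 0.24.0.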

Additional observations from a re-analysis of the deposited data

How the results depend on the processing

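With DESeq2 size factors or a minimum of 10 counts, all 35 members kept direction and call. Of 6 called members, leaving out 1 library left between 1 (without Kdm1a-ifKO replicate 3) and 7; the higher ones (5) numbered 1 to 6, the lower (1) 0 to 2, pores (4) 1 to 4, auxiliary subunits (2) 0 to 3 and partners (15) 9 to 19, and the median of pores minus auxiliary subunits (-0.07) ran from -0.10 to 0.01. The share of all tested genes called in these fits also varied, from 4.58% (without Kdm1a-ifKO replicate 3) to 8.52% (without control replicate 1). It was 8.85% with all libraries. Without control replicate 3 and Kdm1a-ifKO replicate 2, 3 were lower and 21 partners were called (9.49% of all genes). Without a filter on low counts 10 members were called (4 lower, 4 auxiliary) and 26 partners (8.81% of all genes). With DESeq2 3 were lower, and 8.23% of all genes were called. With the GC and length correction 10 were called (6 lower, 6 auxiliary), against 10.3% of all genes, and the median difference was 0.05. The causes were not tested.

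Deviations of same-numbered libraries from their group means had an r of -0.0316, -0.0886 and -0.144. Such deviations sum to 0 within each genotype, so with so few libraries this check cannot exclude a pairing. With the replicate block 1046 genes and 5 members were called, none of them lower (Scn1a, adjusted p = 0.0617), with Cacna1i lost (0.0840) and Cacna1h gained (0.0198). With the block and the GC correction together, 3 members were higher, 6 lower and 6 auxiliary, and the median difference was 0.05. Of all tested genes, 4.96% were then called higher and 3.85% lower.

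Every log2FC that turned sign was that of a member not called by edgeR without these changes. Cacng8 was among those called after turning, with the GC correction (adjusted p = 0.0354) and with the block added (0.0463). With the GC correction, and equally with the block added, they were 0.05 (Cacna1c), -0.08 (Cacna1a), 0.01 (Cacna1e), 0.00 (Scn7a), 0.01 (Cacna2d3), 0.07 (Cacnb2), -0.06 (Cacng4), -0.08 (Cacng7) and -0.20 (Cacng8). With upper-quartile normalization they were 0.00 (Cacna1c) and 0.02 (Cacna2d3), and without a filter 0.00 (Cacna2d3). Without both libraries named above they were 0.05 (Cacna1c), 0.02 (Cacna1e), -0.05 (Cacna2d2), 0.02 (Cacna2d3) and 0.05 (Scn3b). Leaving out 1 library gave -0.06 to 0.02 for Cacna1c, -0.03 to 0.03 for Cacna1a, -0.18 to 0.01 for Cacna1e, -0.00 to 0.18 for Cacna2d2, -0.02 to 0.02 for Cacna2d3, -0.12 to 0.02 for Cacnb1, -0.03 to 0.09 for Cacng8 and -0.13 to 0.02 for Scn3b. Of all genes called, 68.2% were higher, 77.1% with upper-quartile normalization, 57.0% without a filter and 52.4% with the GC correction. Loops lay at 24 to 33 members across the other PET minimums and anchor distances.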
